A study of Mus musculus with 2 samples.

Results

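The NKT cells examined here are the cells of the WT library that the authors placed in a cluster named NKT. They were 94 of the 5470 WT cells and of the 7314 cells of both libraries, which is 1.72% of the WT cells (95% Clopper-Pearson interval, 1.39% to 2.10%). None of the 1844 cells of the Vsir-/- library carried this name, and a count of 0 allows a share of up to 0.163% there. Intervals and limits cover counting error only.

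NKT cells are T cells that carry a T cell receptor with its CD3 chains together with receptors typical of NK cells. Most of them in the mouse are invariant NKT cells, which recognize lipids held by CD1d with a nearly fixed T cell receptor, depend on the transcription factor PLZF (encoded by Zbtb16), and release cytokines within hours of stimulation. NK cells kill with perforin and granzymes without such a receptor, and B cells carry the immunoglobulin receptor with its CD79 chains and present antigen on MHC class II.

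The kidneys came from mice with nephrotoxic serum nephritis (NTN), a model of acute glomerular injury, and their cells were read by droplet-based scRNA sequencing. C57BL/6 mice aged 8 weeks, either WT or Vsir-/- (which lack VISTA, an inhibitory receptor of immune cells), received 200 μg of sheep IgG in Freund's complete adjuvant and sheep nephrotoxic serum 4 days later. The labels give 2 μL of serum per g, whereas the paper's methods give a larger volume. According to the labels the WT library holds sorted CD45+ cells and the Vsir-/- library all kidney cells, whereas the paper's methods state a CD45+ sort, so that absence of the cluster in Vsir-/- mice cannot be told apart from the cells loaded. Each genotype had 1 library, and the number of mice behind it is not given in the sources used here. Thus, no test between genotypes or clusters was possible, and cells were not treated as replicates. The clusters had also been built from transcripts of the same cells, so the comparisons below are descriptions.

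The WT library held 32799550 unique molecular identifiers (UMIs, each standing for 1 captured RNA molecule), with a median of 4726.5 per cell. The Vsir-/- library held 18601189 UMIs, with a median of 6673 per cell. The libraries shared 5 cell barcodes, and none of these belonged to an NKT cell. The NKT cells were compared with 4 clusters of the same library, under the authors' names: 594 NK cells, 489 effector memory-like (EM-like) CD4+ T cells, 197 EM-like CD8+ T cells, and 969 B cells. In the EM-like CD4+ cluster, 93 cells held a UMI of Cd8a or Cd8b1 without Cd4 and 92 held Cd4 alone, so that this name does not describe all of its cells.

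The depth of the NKT cells varied widely, and they were split at their median into a shallow and a deep set. Their UMIs per cell ranged from 534 to 18751, with a median of 2745.5. The 47 cells at or below the median held 534 to 2627 UMIs, with a median of 926 UMIs and 568 genes. The 47 cells above it held 2864 to 18751 UMIs, with a median of 8863 UMIs and 2733 genes. For comparison, the median was 5491.5 UMIs in NK cells, 4903 in EM-like CD4+ cells, 3886 in EM-like CD8+ cells, and 3426 in B cells. In all, 8.51% (3.75% to 16.1%) of the NKT cells were above 11296 UMIs, the 90th percentile of the WT cells, against 9.60% of NK cells, 7.77% of EM-like CD4+ cells, and 0.826% of B cells. Proliferating cells had the highest share, at 68.6%. At the other end, 11.8% of NK cells and 23.3% of B cells were at or below the NKT median. The deep cells supplied 89.1% of the 461295 UMIs of the cluster, so that pooled values describe them more than the shallow cells.

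**Figure D1:**
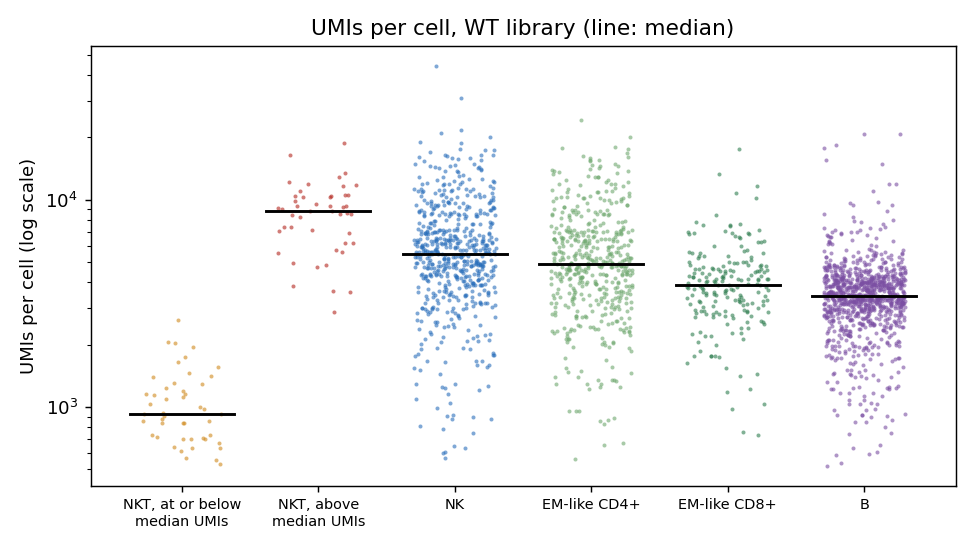
UMIs per cell on a log scale in the WT library, with 1 point per cell and a line at each median, for the NKT cells at or below and above their median and for the 4 comparison clusters. The shallow NKT cells have a median of 926 UMIs and the deep ones 8863, below and above the medians of all 4 other clusters.

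Doublets, droplets that hold more than 1 cell, were not removed here. A doublet caller (scrublet) marked 4 of the 5470 WT cells and none of the NKT cells. These calls were too few to be used, and the scores are given as a description. The median doublet score was 0.233 in deep NKT cells and 0.103 in shallow ones, against 0.0227 in NK cells, 0.0426 in EM-like CD4+ cells, 0.0235 in EM-like CD8+ cells, and 0.0299 in B cells. Proliferating cells had a median of 0.0740. All 47 deep NKT cells and 19 of the 47 shallow ones were among the 511 cells above the 90th percentile of the scores, as were 9.60% of NK cells, 1.44% of B cells, 12.2% of neutrophils, and 13.6% of proliferating cells.

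The data bear out the name of the cluster only in part. Of the 6 genes that mark it, transcripts of T cells and NK cells were present, but Zbtb16 was nearly absent. The genes that stood out most by fold against the pooled NK and EM-like T cells were those of B cells. The cluster is therefore called NKT below only as the authors' name for it.

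Among the T cell markers, Cd3d and Cd3e, which encode chains of the CD3 complex, lay between NK and T cells. Cd3d had 99 UMIs in NKT cells, or 215 CPM (counts per 1000000 UMIs; 95% Poisson interval, 174 to 261), against 110 CPM in NK cells, 722 in EM-like CD4+ cells, and 740 in EM-like CD8+ cells. Cd3e had 124 CPM (93.6 to 160) in NKT cells, against 52.7 in NK cells, 495 in EM-like CD4+ cells, and 797 in EM-like CD8+ cells. Each value of the NKT cluster was thus above NK cells and below both T cell clusters, with intervals of the ratios that left out 0 on the log2 scale. Cd3d was found in 35.1% of NKT cells and Cd3e in 24.5%, against 13.4% and 8.59% of neutrophils, which should lack both (median depths, 2745.5 and 3565 UMIs). After every cell was thinned to 1000 UMIs, which left 67 NKT cells, Cd3d was found in 23.9% of them and Cd3e in 5.97%, against 3.98% and 2.78% of neutrophils.

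The NK-type markers were well detected. Klrb1c, which encodes NK1.1, had 280 CPM (233 to 332) in NKT cells, against 597 in NK cells, 281 in EM-like CD8+ cells, 145 in EM-like CD4+ cells, and 3.45 in B cells. Nkg7, a gene of cytotoxic granules, had 2346 CPM (2208 to 2490) in NKT cells, against 4363 in NK cells, 3871 in EM-like CD8+ cells, 1559 in EM-like CD4+ cells, and 28.1 in B cells. Cd160, a receptor of NK and memory T cells, had 124 CPM (93.6 to 160) in NKT cells, against 82.2 in NK cells, 214 in EM-like CD4+ cells, and 247 in EM-like CD8+ cells. Hence, Klrb1c and Nkg7 were lower than in NK cells, by 1.09 and 0.89 on the log2 scale (log2 ratios of −1.09 and −0.89), and Cd160 was higher than in NK cells by 0.60.

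Zbtb16 had 2 UMIs in the whole cluster, in 2 of the 94 cells, or 4.34 CPM (0.525 to 15.7). Its level was 9.58 CPM in NK cells, 8.56 in EM-like CD4+ cells, and 8.87 in neutrophils, so that no excess of this gene was detectable at this depth. A UMI of Cd3d or Cd3e together with one of Klrb1c was found in 17 NKT cells, which is 18.1% (10.9% to 27.4%), against 20.7% of NK cells, 17.0% of EM-like CD4+ cells, and 54.3% of EM-like CD8+ cells. Of these 17 cells, 2 had no UMI of the 6 B cell transcripts named below, whereas in NK cells 105 of 123 had none.

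**Figure D2:**
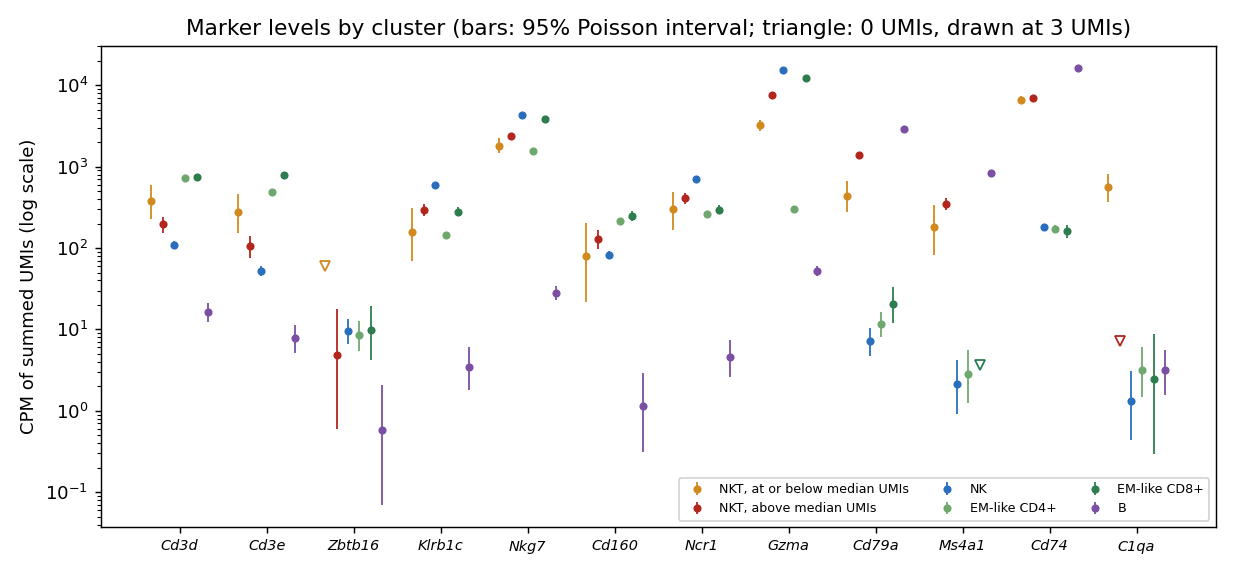
CPM of summed UMIs on a log scale for 12 genes in shallow and deep NKT cells and in the 4 comparison clusters, with 95% Poisson intervals and a triangle at 3 UMIs where a gene had 0. In deep NKT cells Cd79a lies at 1396 CPM and Gzma at 7525, whereas each comparison cluster is high in only one of these genes or in neither, and C1qa is seen in the shallow NKT cells.

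B cell transcripts set the NKT cluster apart from NK and T cells. The list of B cell genes had 26 members, all of which passed the filter of 20 UMIs in each pair of clusters. All 26 were at least 2-fold higher in NKT cells than in NK cells, where 6.9% of the 8828 genes examined were as much higher. The same held against EM-like CD4+ cells (background, 5.77% of 8711 genes) and EM-like CD8+ cells (5.52% of 6287 genes). Against B cells, 23 of the 26 were at least 2-fold lower, with a background of 9.3% of 8717 genes. The NK list described below went the other way, with all 25 members that passed the filter at least 2-fold higher than in B cells (background, 10.3%). The median log2 ratio of the list was 6.75 against NK cells and −1.30 against B cells, whereas the median over all genes was −0.02 and 0.04. No member was left out by the filter, and the counts describe the list and are no test.

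Cd79a, which encodes a signalling chain of the B cell receptor, had 596 UMIs in 63 NKT cells. Its level was 1292 CPM (1190 to 1400), against 7.18 in NK cells, 11.8 in EM-like CD4+ cells, 20.6 in EM-like CD8+ cells, and 2942 in B cells. Igkc, the constant part of the kappa light chain, had 3690 CPM (3516 to 3869) in NKT cells, against 39.6 in NK cells and 10268 in B cells. Ighm, the heavy chain of IgM, had 1290 CPM, against 67.0 in NK cells and 3047 in B cells. Cd79b had 744 CPM, against 7.45 in NK cells and 1625 in B cells. Ebf1, a transcription factor that sets B cell identity, had 618 CPM, against 5.06 in NK cells and 1966 in B cells. Each of these genes was seen in at least 56 NKT cells, and none drew more than 17.1% of its UMIs from a single cell.

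Genes of antigen presentation on MHC class II also lay between B cells and the other clusters. All 10 members of that list passed the filter and were at least 2-fold higher in NKT cells than in NK, EM-like CD4+, and EM-like CD8+ cells (backgrounds, 6.9%, 5.77%, and 5.52%), and 8 were at least 2-fold lower than in B cells (background, 9.3%). Cd74, the invariant chain, had 6998 CPM (6758 to 7243) in NKT cells, against 183 in NK cells and 16259 in B cells. H2-Aa had 1858 CPM, against 60.9 in NK cells and 4701 in B cells. H2-Eb1 and H2-Ab1 had 1665 and 1517 CPM, against 55.3 and 61.2 in NK cells. Among plasma cell genes, Jchain, Ighg2b, Ighg2c, and Ighg3 had no UMI in NKT cells, where a count of 0 allows up to 6.50 CPM. They were also low in B cells, where Jchain had 9.19 CPM and Ighg2b 31.6 CPM. Sdc1, which encodes the plasma cell marker syndecan-1 and was chosen after its values were seen, had 17.3 CPM in NKT cells and 17.2 in B cells.

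The NK and cytotoxic genes named here had lower levels than in NK cells. In the list of 28 NK receptors and adaptors, 27 passed the filter against NK cells. None was at least 2-fold higher and 10 were at least 2-fold lower, with a background of 6.71% lower and a median log2 ratio of −0.85. Against EM-like CD4+ cells, 10 of the 26 that passed were at least 2-fold higher and 1 was lower (backgrounds, 5.77% and 9.99%). Against EM-like CD8+ cells, 6 of 25 were higher and 5 were lower (5.52% and 6.74%). Ncr1, which encodes NKp46, had 397 CPM (341 to 458) in NKT cells, against 702 in NK cells, 262 in EM-like CD4+ cells, and 4.59 in B cells. Tyrobp, an adaptor of activating receptors, had 1448 CPM, against 2906 in NK cells. Klrd1 and Klre1 had 653 and 557 CPM, against 1093 and 1026 in NK cells. Gzma, a granzyme, had 7058 CPM (6818 to 7305) in NKT cells, against 15587 in NK cells, 12179 in EM-like CD8+ cells, and 299 in EM-like CD4+ cells. Gzmb had 707 CPM, against 1615 in NK cells, and Prf1 (perforin, chosen after its values were seen) had 598 CPM, against 1777 in NK cells and 419 in EM-like CD8+ cells. In the list of cytotoxic granule genes, 6 of the 18 that passed were at least 2-fold lower than in NK cells and 1 was higher (backgrounds, 6.71% and 6.9%). Gzmc had no UMI.

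In the pooled cluster, genes of the T cell receptor complex were closer to the levels in NK cells than to those in T cells. In the list of 22 such genes, 17 of 22 were at least 2-fold lower in NKT cells than in EM-like CD4+ cells (background, 9.99%), and 14 of the 21 that passed were lower than in EM-like CD8+ cells (background, 6.74%). Against NK cells, 3 of 22 were at least 2-fold higher and none was lower (backgrounds, 6.9% and 6.71%), with a median log2 ratio of 0.10. Trbc2 and Trbc1, the constant parts of the beta chain, had 453 and 403 CPM in NKT cells, against 382 and 380 in NK cells and 1494 and 859 in EM-like CD4+ cells. Cd3g had 277 CPM, against 128 in NK cells and 925 in EM-like CD4+ cells. Cd2, an adhesion molecule, had 271 CPM and was alike in the 5 clusters, from 259 to 312 CPM. Among gamma delta chain genes, Trdc had 102 CPM in NKT cells, against 59.6 in NK cells and 390 in EM-like CD8+ cells. These pooled values do not describe the shallow cells, where Trbc2 had 1254 CPM. There the list of 22 genes summed to 4697 CPM, against 2717 in NK, 8521 in EM-like CD4+, and 8651 in EM-like CD8+ cells.

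Genes of the invariant NKT program summed to 2261 CPM (2126 to 2403) in NKT cells, against 1879 in NK cells, 3046 in EM-like CD4+ cells, 1470 in EM-like CD8+ cells, and 1736 in B cells. The beta chain genes Trbv13-2, Trbv1, and Trbv29, which invariant NKT cells often use, had no UMI in the cluster. However, they had at most 3.21 CPM each in EM-like CD4+ cells, below the 6.50 CPM that a count of 0 allows here. Trbv13-3, also in this list, was detected in the deep NKT cells and not in the shallow ones. It was also detected in EM-like CD4+ cells and neutrophils, but not in NK, EM-like CD8+, or B cells. Tbx21 had 132 CPM (101 to 170), against 179 in NK cells and 83.5 in EM-like CD4+ cells. Il2rb had 442 CPM, against 719 in NK cells. Cd69 had 668 CPM, against 363 in NK cells and 961 in B cells, and Plac8 had 384 CPM, against 82.0 in NK cells and 509 in B cells, with 31.1% of its UMIs from a single cell. In the list as a whole, 3 of 14 genes were at least 2-fold higher than in NK cells and none was lower (backgrounds, 6.9% and 6.71%). Against EM-like CD8+ cells, 4 of 12 were higher and none was lower (5.52% and 6.74%), and against EM-like CD4+ cells, 2 of 16 were higher and 6 were lower (5.77% and 9.99%).

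Among cytokines, Ccl5 had 15259 CPM in NKT cells, against 26556 in NK cells, 32165 in EM-like CD8+ cells, 3508 in EM-like CD4+ cells, and 130 in B cells. Ccl4 had 676 CPM, against 1612 in NK cells. Xcl1 had 540 CPM, against 409 in NK cells and 1452 in EM-like CD4+ cells. Ltb, which B cells and T cells share, had 494 CPM, against 98.2 in NK cells and 884 in B cells. Ifng, chosen after its values were seen, had 72 UMIs in 49 NKT cells, or 156 CPM, against 188 in NK cells and 175 in EM-like CD4+ cells. The cytokine genes Il4, Il5, Il10, Il13, Il17a, Il17f, Il21, and Il22 had no UMI, which allows up to 6.50 CPM each. The same genes had no UMI in EM-like CD8+ cells.

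Across all genes, 609 of 8828 were at least 2-fold higher and 592 were at least 2-fold lower in NKT cells than in NK cells. The counts were 503 and 870 of 8711 against EM-like CD4+ cells, 347 and 424 of 6287 against EM-like CD8+ cells, and 895 and 811 of 8717 against B cells. Many of these genes had few UMIs. The interval of the ratio left out 0 for 437 of the 609 higher and 251 of the 592 lower genes against NK cells, and for 708 of 895 and 469 of 811 against B cells. Of the 7826 genes with at least 100 UMIs in the 5 clusters, 66.9% had a level in NKT cells between the lowest and the highest of the 4 other clusters, 1162 were above all of them, and 1432 were below all. Most genes would also lie between if the 5 clusters were interchangeable, so nothing is concluded from this share.

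The 10 genes with the largest ratio of NKT cells to the pooled NK and EM-like T cells were Fcrla, Iglc1, Ms4a1, Vpreb3, Gm31243, Spib, Cd79a, Iglc2, Ly6d, and Pkib, with log2 ratios from 6.68 to 8.01. All 10 had their highest level of the 5 clusters in B cells. Ms4a1, which encodes CD20, had 332 CPM in NKT cells and 834 in B cells, against 2.13 in NK cells. Fcrla had 156 CPM, against 331 in B cells and 0.798 in NK cells. Iglc1 and Iglc2 are near-identical light chain genes, so reads could be split between them. The 9 genes with the smallest ratio were Mib1, Cd8b1, Il7r, Cd8a, Camk4, Cd28, Fam241a, Metrn, and Tmem154, with log2 ratios from −4.21 to −2.16. Cd28, a costimulatory receptor of T cells, had 23.9 CPM, against 259 in EM-like CD4+ cells, and Cd8a had 17.3 CPM, against 313 in EM-like CD8+ cells. Mib1 had no UMI, so that it was at least 3.08-fold lower than in the pooled cells.

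Genes that the NKT cells had in excess of all 4 clusters were few. At least 2-fold above each of them, with at least 20 UMIs in 10 cells, were C1qa, C1qb, and C1qc, which encode the complement component C1q of macrophages, the interferon-induced Ifitm3, and Tmub2. At least 2-fold below each of them were Tlk2, Eps15l1, Ptbp2, Lars2, Map2k7, and Ubr1, with 3 to 14 UMIs each. Fam241a, named above among the smallest ratios, had 2 UMIs and was also below each of them, with log2 ratios from −2.95 to −1.03. C1qa had 28 UMIs in NKT cells, all of them in the shallow set, where it was found in 21 of 47 cells. C1qb had 28 of its 29 UMIs there, C1qc 23 of 26, and Ifitm3 49 of 55, whereas Tmub2 had 5 of 20. In shallow cells C1qa was at 557 CPM, against 109 CPM in the WT library as a whole and 41.9 in neutrophils.

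**Figure D3:**
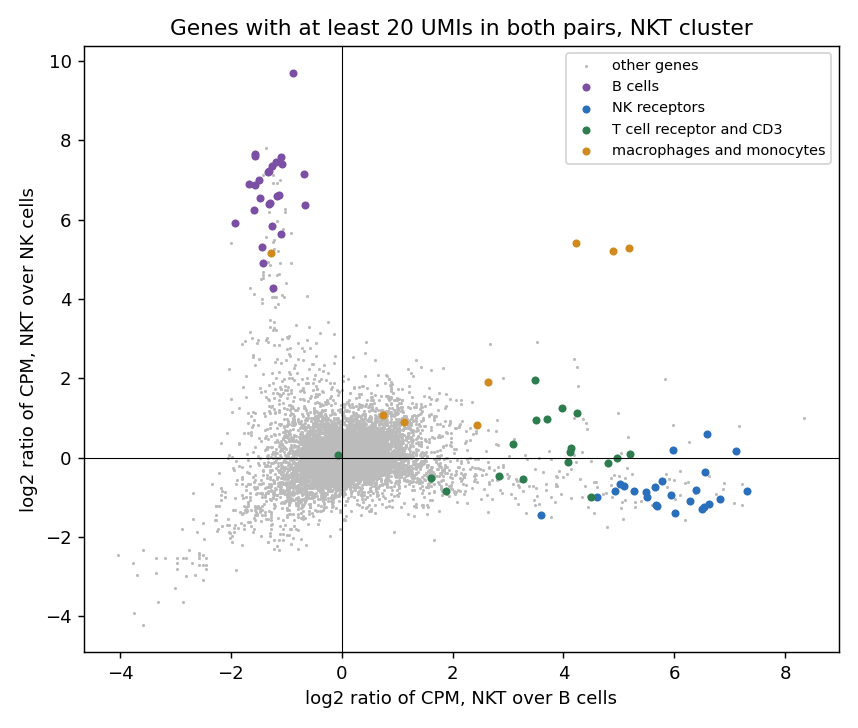
Log2 ratio of CPM of NKT cells over B cells (horizontal) and over NK cells (vertical), with 1 point per gene that had at least 20 UMIs in both pairs, and members of 4 gene lists in colour. B cell genes lie high above NK cells and below B cells, NK receptors lie far above B cells and mostly below NK cells, and the 3 C1q genes lie above both.

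The lineage transcripts were then counted in single cells with 3 short lists. The B cell list held Cd79a, Cd79b, Ms4a1, Pax5, Ebf1, and Bank1, the NK list held Klrb1c, Ncr1, Klrd1, Klre1, and Klrk1, and the T cell list held Cd3d, Cd3e, Cd3g, Trac, Trbc1, and Trbc2. NK cells also transcribe Trbc1 and Trbc2, and 505 of the 594 NK cells had a UMI of the T cell list, so this list alone does not separate T from NK cells.

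At least 1 UMI of the B cell list was found in 78 of the 94 NKT cells, which is 83.0% (73.8% to 89.9%). The share was 9.76% in NK cells, 13.3% in EM-like CD4+ cells, 8.63% in EM-like CD8+ cells, and 11.3% in neutrophils, with median depths of 2745.5 UMIs in NKT cells and 3565 in neutrophils. It was higher than in these in several other clusters, with 57.1% of the 21 pDC, 52.6% of R1 macrophages, 43.5% of gdT cells, and 41.0% of M2-like R2 macrophages. B cell and NK transcripts were found together in 67 NKT cells, which is 71.3% (61.0% to 80.1%), against 9.76% of NK cells, 6.81% of B cells, and 1.91% of neutrophils. The next highest shares were 47.6% (25.7% to 70.2%) of pDC, 30.5% of proliferating cells, and 26.1% of gdT cells. T cell and NK transcripts without any B cell transcript were found in 11 of the 94 cells, which is 11.7% (5.99% to 19.97%). This pattern was found in 75.9% of NK cells, 54.4% of EM-like CD4+ cells, and 88.8% of EM-like CD8+ cells, and in 48.6% of the 70 NK cells at or below the NKT median UMIs.

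The shares were then compared at equal depth. After thinning to 1000 UMIs, B cell and NK transcripts were together in 46 of 67 NKT cells, or 68.7% (56.2% to 79.4%), against 0.862% of NK cells, 2.43% of B cells, 5.62% of M2-like R2 macrophages, 4.76% of pDC, and 2.59% of proliferating cells. After thinning to 500 UMIs, which kept all 94 NKT cells, they were together in 46.8% (36.4% to 57.4%), against 0.673% of NK cells, 1.34% of B cells, and 9.52% (1.17% to 30.4%) of pDC. The gap in T cell and NK transcripts without B cell transcripts narrowed with thinning. At 1000 UMIs this pattern was found in 14.9% (7.40% to 25.7%) of NKT cells, or 8.96% with another seed, against 48.6% of NK cells and 42.6% of EM-like CD4+ cells. The 27 NKT cells under 1000 UMIs, which were left out there, all belonged to the shallow set. At 500 UMIs the pattern was found in 12.8% (6.77% to 21.2%) of NKT cells, against 25.4% of NK cells, 27.2% of EM-like CD4+ cells, and 68.0% of EM-like CD8+ cells. In the shallow NKT cells it was found in 10 of 47 at 500 UMIs, or 21.3% (10.7% to 35.7%). The pattern was found in 14 of the 70 NK cells and 16 of the 79 EM-like CD4+ cells of like depth, so that no difference from these was detectable. Of the 35 EM-like CD8+ cells of like depth, 23 had it, or 65.7% (47.8% to 80.9%), which was higher than in the shallow NKT cells.

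The lists were also counted in the deep and shallow cells, where the number of UMIs follows in part from the split by depth. All 47 deep cells had at least 6 UMIs of the B cell list, with a median of 29 and a highest value of 127. B cells also had a median of 29. Of the NK list, the deep cells had a median of 21 UMIs, against 25 in NK cells. At least 5 UMIs of both the B cell and the NK list were found in 43 of the 47 deep cells, which is 91.5% (79.6% to 97.6%). The same was true of 2 of 594 NK cells, 7 of 969 B cells, and 1 of 524 neutrophils. At least 5 UMIs of the B cell and the T cell list were found in 30 deep cells, and of all 3 lists in 27. Per 1000 UMIs of the cell, the deep cells had a median of 3.49 UMIs of the B cell list and 2.57 of the NK list, against 8.49 in B cells and 4.45 in NK cells.

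The shallow cells had medians of 1 UMI of the B cell list, 1 of the NK list, and 3 of the T cell list. Per 1000 UMIs these were 1.03, 1.52, and 2.87 UMIs, against 0.930 of the T cell list in deep cells, 0.622 in NK cells, and 4.98 in EM-like CD8+ cells. Thinned to 500 UMIs, 53.2% (38.1% to 67.9%) of them had a B cell transcript, against 2.86% of the 70 NK cells and none of the 35 EM-like CD8+ cells that were also at or below the NKT median. The latter allows a share of up to 10.0% by the exact interval. At the same thinning, the share was 38.1% in pDC, 28.4% in R1, 22.9% in Other R2, and 19.96% in M2-like R2 macrophages, at any depth. B cell and T cell transcripts were together in 44.7% of the shallow cells, against 3.10% of the 226 B cells of such low depth.

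**Figure D4:**
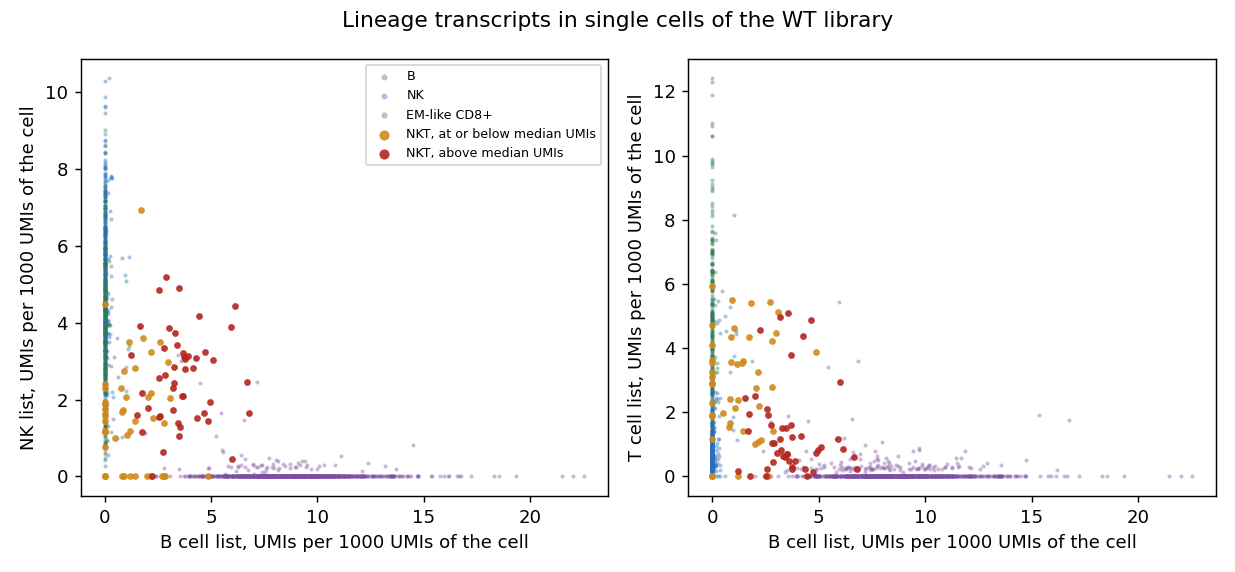
UMIs of the B cell list (horizontal) and of the NK or T cell list (vertical) per 1000 UMIs of each cell, with 1 point per cell of the NKT, NK, EM-like CD8+, and B cell clusters. B cells lie along the horizontal axis and NK and T cells along the vertical axis, whereas deep NKT cells lie between the axes, with medians of 3.49 for B cell and 2.57 for NK transcripts.

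The 2 sets also differed in gene groups. The B cell list summed to 13210 CPM (12861 to 13566) in deep cells and 3901 (3374 to 4487) in shallow ones. The MHC class II list did not show this difference, with 13045 CPM in deep and 14072 in shallow cells. The T cell receptor list summed to 2778 CPM in deep and 4697 (4117 to 5337) in shallow cells. The list of macrophage and monocyte genes summed to 560 CPM in deep and 4359 (3801 to 4976) in shallow cells, against 263 in NK cells, 892 in B cells, and 10385 in neutrophils. All but 2 of its 16 members had a UMI in shallow cells, the exceptions being Ms4a7 and Ace. Lyz2, the lysozyme of myeloid cells, had 896 CPM in shallow and 56.0 in deep cells, against 3872 in the WT library, and Cst3 had 1334 and 158 CPM. Ccr7, a homing receptor of B and naive T cells, had 85 UMIs in deep cells and none in shallow ones. Whether more than 1 cell or free RNA in the droplets had a part in these values was not tested.

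The pooled profile of the cluster was set against those of the 15 other WT clusters over 12603 genes, as a description across genes that share library and depth. Spearman's rho of log2(CPM + 1) was 0.92 with NK cells, 0.91 with EM-like CD4+ cells, 0.90 with EM-like CD8+ cells, and 0.89 with B cells. It was also 0.92 with the WT library as a whole. When the profile was written as a sum of the other 15 with non-negative weights, NK cells took 42.3%, B cells 31.1%, pDC 11.0%, and EM-like CD8+ cells 9.54%. This sum accounted for 99.7% of the squared CPM, whereas the best single cluster, the EM-like CD4+ cells, accounted for 90.6% and NK cells alone for 89.1%. A sum of 15 profiles cannot account for less than any of them alone, so nothing is concluded from this gap. In the sum, the EM-like CD4+ cells took only 0.43%. The profiles are alike, so the weights depend on which are fitted together and are not shares of the cells. For the deep cells the weights were 48.7% for NK cells and 32.7% for B cells, with 7.30% for pDC and 5.73% for EM-like CD8+ cells.

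In the shallow cells the weights differed. They summed to 113%, so that they are not shares of the cells. Both NK and B cells had a weight of 0, and the largest weights were 28.9% for EM-like CD4+ cells, 24.4% for EM-like CD8+ cells, 20.1% for proliferating cells, 19.0% for pDC, and 10.8% for R1 macrophages. Their rho was highest with the WT library as a whole, at 0.77, followed by 0.74 with EM-like CD4+ cells and with NK cells. Siglech and Ccr9, which mark pDC, had no UMI in the cluster, but Siglech had none in the 4 comparison clusters either. The list of 9 dendritic cell genes, which holds both, summed to 930 CPM in NKT cells, with Irf8 at 700 CPM. The sum was 1460 CPM in NK cells, 324 in EM-like CD4+ cells, 259 in EM-like CD8+ cells, and 701 in B cells. The part of these genes in the pDC weight was not tested.

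**Figure D5:**
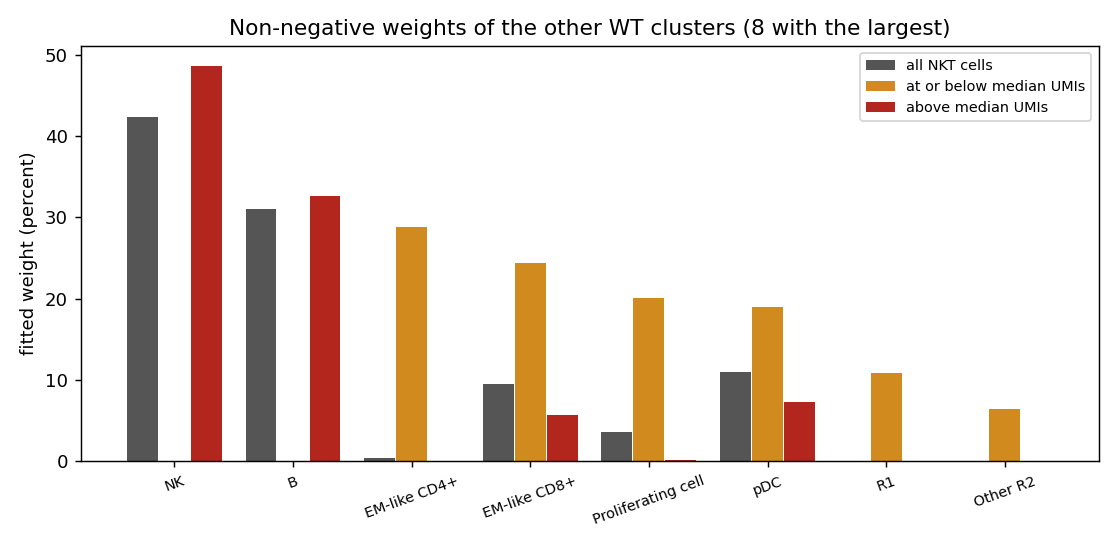
Non-negative weights, in percent, of the 8 other WT clusters with the largest weights, for all NKT cells and for those at or below and above their median UMIs. The weights need not sum to 100%. The deep cells have weights of 48.7% for NK cells and 32.7% for B cells, and the fit for the shallow cells gives both a weight of 0.

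In the Vsir-/- library, which holds no cell named NKT, at least 5 UMIs of both the B cell and the NK list were found in 4 of 1844 cells, which is 0.217% (0.0591% to 0.554%). In the WT library outside the cluster, the share was 25 of 5376 cells, or 0.465% (0.301% to 0.686%). Genotype, sort, and library cannot be told apart in this pair of libraries.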

How the data were processed

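Per the labels and methods, reads were aligned and counted by the authors in Cell Ranger (version 3.1.0), and genes and cells were filtered, SCTransform-merged, clustered, and named in Seurat (version 3.2.3; R 4.0.3). The submitters' processing notes name mm9 as a build, so no coordinates are given. The matrix of the authors holds raw counts, with 1 whole number of UMIs for each of 20299 genes in each cell. The deposited percent of mitochondrial UMIs served for an alternative limit. The deposited UMAP coordinates, a score without unit, were not used.

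UMIs were summed per cluster of the WT library and divided by all UMIs of the same cells (CPM). Ratios of CPM have 0.5 UMIs added to each sum and a minimum of 20 UMIs in the pair, and 2-fold (log2 ratio of 1 or more, or −1 or less) was the limit for a call. Poisson, Clopper-Pearson, and exact conditional intervals are at the 95% level. A count of 0 was taken to allow 3 counts. Thinning drew UMIs without replacement with a fixed seed, and weights came from non-negative least squares on CPM. Because each genotype had 1 library, no test, p-value, or standard error was computed. The ratio and weight steps were tested on simulated data. Software was Python 3.11.15, scipy 1.17.1, numpy 2.4.6, scanpy 1.11.5 (also for scrublet), pandas 2.3.3, and, for the plots, matplotlib 3.10.9.

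The cluster, the gene lists, and the comparisons were chosen with earlier results of these data known, and B cells were added as a comparison after the published embedding had been seen. Named genes are the 6 markers, the 4 members of each list with most UMIs in NKT cells, defining members at 0, the 10 largest and 10 smallest ratios to the pooled NK and EM-like T cells (a UMI in at least 10 NKT cells, or in at least 10% of the pooled cells), and up to 10 genes at least 2-fold above, or below, each of the 4 clusters. Some genes of the lists and 1 of the 10 smallest ratios are not reported here, and those of the lists were left out of them after the data were seen. Genes of the short per-cell lists were named too, and Cd4, Ifng, Prf1, Sdc1, and the genes compared between deep and shallow cells were chosen after their values were seen. The split at the median UMIs was planned for the cells at or below it, and the cells above it were added after the data were seen, as was the limit of 5 UMIs per list.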

Additional observations from a re-analysis of the deposited data

How the results depend on the processing

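Of 169 values recomputed under alternatives, 101 stayed within 1.5-fold for a count of genes or a ratio of depths, the counting interval for a level or share, 0.1 for rho, or 10 percentage points for a weight, and 68 did not. The tolerances were set after the data were seen. Below, counts of genes past 2-fold are given as higher and lower in NKT cells. A minimum of 50 UMIs gave 282 and 321 against NK cells, 237 and 473 against EM-like CD4+ cells, 138 and 152 against EM-like CD8+ cells, and 485 and 513 against B cells. No filter on low counts gave 2890 and 959, 2663 and 1463, 1908 and 1447, and 3180 higher against B cells. The mean over cells gave 954 and 1458 against NK cells, and 1740, 952, and 1726 lower against EM-like CD4+ cells, EM-like CD8+ cells, and B cells. Thinning to 1000 UMIs gave 323 higher against NK cells, 218 higher against EM-like CD4+ cells, and 96 and 219 against EM-like CD8+ cells. NKT cells at or below the median UMIs gave 1851 and 1019 against NK cells, 1567 higher against EM-like CD4+ cells, 606 and 1022 against EM-like CD8+ cells, and 2200 higher against B cells. A pseudocount of 1, the median of ratios, and comparison cells without transcripts of the other lineage moved no count by over 1.5-fold.

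Levels of the lists in NKT cells also depended on the cells used. In the cells at or below the median they were 3901 CPM for B cell genes (12196 over all NKT cells), 7822 for NK receptors (8303), 4697 for the T cell receptor (2987), 14072 for MHC class II (13156), 4359 for macrophage genes (973), and 8619 for cytotoxic granules (13211). In the cells above it they were 13210 for B cell genes, 2778 for the T cell receptor, 560 for macrophage genes, and 13772 for cytotoxic granules. The mean over cells gave 8514 for B cell genes, 3727 for the T cell receptor, 14114 for MHC class II, 2591 for macrophage genes, and 10889 for cytotoxic granules. Without ribosomal, mitochondrial, and immunoglobulin genes the levels were 7906, 11902 for NK receptors, 4282, 18860, 1395, and 18938, respectively. A limit of 5% mitochondrial UMIs gave 8596 for NK receptors.

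B cell and NK transcripts were together in 46.8% of NKT cells thinned to 500 UMIs, 44.8% with at least 2 UMIs of each list, and 29.8% of the shallow cells thinned to 500 UMIs, against 68.7% as reported. B cell with T cell or NK transcripts gave 63.8%, 52.2%, and 48.9%, and 89.6% with another seed, against 79.1%. T cell and NK transcripts without B cell transcripts gave 4.26% of the deep and 21.3% of the shallow cells thinned to 500 UMIs, and 8.96% with another seed, against 14.9%. In the shallow cells rho was 0.74 with NK cells, 0.74 with EM-like CD4+ cells, 0.72 with EM-like CD8+ cells, and 0.69 with B cells, and the weights were 0, 28.9%, 24.4%, and 0. The cause of these shifts was not tested. The shallow cells held 50240 UMIs and the deep ones 411055, and rho and the weights were not computed at equal depth.

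No paired analysis was possible because each genotype had 1 library, and for the same reason no replicate could be left out. The depth of the 47 shallow cells, 50240 UMIs in all, leaves a gene without UMIs there with a level of up to 59.7 CPM.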

Other observations

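Other gene groups were compared with NK cells, against a background over all genes of 6.9% at least 2-fold higher and 6.71% at least 2-fold lower. Among cell cycle genes, 0 of the 16 that passed the filter were at least 2-fold higher and 2 were at least 2-fold lower in NKT than in NK cells. Hmgb2 had 639 CPM in NKT cells, against 727 in NK cells and 256 in B cells. Among immediate early and heat shock genes, which rise when tissue is digested, 1 of 17 was higher and 1 was lower. Jund had 1715 CPM in NKT cells, against 1341 in NK cells and 2549 in B cells. Among interferon response genes, 7 of 19 were at least 2-fold higher than in NK cells, and none was lower. Against EM-like CD4+ cells none of 20 was higher and 3 were lower (backgrounds, 5.77% and 9.99%), and against EM-like CD8+ cells 2 of 18 were higher and 1 was lower (5.52% and 6.74%). Against B cells, 8 of 20 were higher and 1 was lower (10.3% and 9.3%). Ifi27l2a had 1275 CPM in NKT cells, against 243 in NK cells, 2360 in EM-like CD4+ cells, and 1405 in B cells, and Ly6a had 277 CPM, against 53.5 in NK cells and 595 in B cells. Among lymphocyte transcription factors, 4 of 22 were higher and 5 were lower than in NK cells. Zeb2 had 421 CPM, against 576 in NK cells and 1121 in EM-like CD8+ cells, and Foxp3 and Zfp683 had no UMI.

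The same background of 6.9% higher and 6.71% lower holds for the following groups. Among homing and adhesion genes, 4 of 17 were higher than in NK cells and none was lower, and Itgae had no UMI. Among cytokine receptors, 4 of 19 were higher and 1 was lower, and Ifngr1 had 368 CPM, against 587 in NK cells. Among checkpoints, 2 of 16 were higher and none was lower, whereas 2 of 18 were higher and 10 were lower than in EM-like CD4+ cells (backgrounds, 5.77% and 9.99%), and Btla had 75.9 CPM, against 4.52 in NK cells and 179 in B cells. Among naive T cell genes, 1 of 9 was higher and 2 were lower, and Klf2 had 1403 CPM, against 1210 in NK cells. Among dendritic cell genes, 1 of the 4 that passed was higher and 1 was lower, and Irf8 had 700 CPM, against 1342 in NK cells and 351 in B cells. Among genes of B cell subsets and plasma cells, 4 of the 8 that passed were higher and 1 was lower, and Fcer2a, which encodes CD23, had 119 CPM, against 1.86 in NK cells and 456 in B cells.

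Transcripts of kidney tubule, red cells, and platelets were nearly absent, as were those of ILC2 and basophils. NKT cells had 0 UMIs of the 9 genes of ILC2 and basophils, 2 UMIs of the 18 kidney tubule genes, and 1 UMI of the 8 genes of red cells and platelets. Of endothelial genes they had 32 UMIs, of which 29 were Pecam1, while Cdh5 and Kdr had none. The list of neutrophil genes summed to 288 CPM in NKT cells, against 405 in NK cells and 305 in B cells.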
